A study of Mus musculus with 9 samples.

Results

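Potassium channel genes were described in gastrocnemius, a mainly fast-twitch muscle of the calf, of mice aged 6, 15 and 21 months. A gene was included if its symbol began with Kcn, followed by letters and a number, and if it had at least 10 counts in at least 3 of the 9 libraries. Of 85 genes with such a symbol among the 17314 of the table, 46 met the count rule. RNA was sequenced from 3 mice of 6 months, 3 of 15 months and 3 of 21 months, with 1 library per mouse. No treatment, strain or sex was named in the labels used here, so age was the factor compared, and the study as a whole concerns thyroid hormone receptor alpha in muscle aging. Only the design text of the series says that the libraries are of different mice. The tissue was whole muscle, in which a lower level of a gene can come from fewer cells of a type or from less RNA per cell, and these cannot be told apart here.

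Potassium channels let potassium leave the cell along its gradient and thereby set the resting potential of muscle fibres and end each action potential. Voltage-gated channels open on depolarisation and repolarise the membrane, inward rectifiers hold the resting potential, and the ATP-sensitive channels among them open when the energy supply of the fibre falls. Calcium-activated channels link the membrane potential to calcium, and two-pore channels carry background current. Pore subunits of the voltage-gated group assemble as tetramers, often with accessory subunits that change their kinetics or trafficking, while so-called silent pore subunits conduct only together with another pore subunit.

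Fast fibre markers (Acta1, Ckm, Myh4 and 4 others) were present at a summed level of 139067 to 145567 CPM at 6 months. The sums were 102372 to 148591 at 15 months and 112908 to 135965 at 21 months, and no marker was at 0 in all libraries. Of these 7 markers only 1 was higher at 21 against 6 months and only 1 at 15 against 6 months. Their median log2 fold changes were -0.20 and -0.18, with 1 and 0 at an unadjusted p under 0.05 in edgeR. The part of fast fibre content in the levels of the channel genes was not tested. Libraries differed widely in slow and oxidative fibre markers, whose sums were 1774, 57.1 and 671 CPM at 6 months, 5306, 3295 and 1106 at 15 months and 1416, 1214 and 4473 at 21 months. Myh2 held most of each sum except in mouse 2 of 6 months. It had 1611, 0.751 and 530 CPM at 6 months, 4395, 2825 and 834 at 15 months and 1267, 967 and 3642 at 21 months. By the sums and by Myh2, mouse 2 of 6 months was lowest, and mouse 1 of 15 months and mouse 3 of 21 months were highest. These 3 libraries also lay farthest out on the first principal component of all tested genes, which held 35.2% of the variance, so values without them are given beside several results. Total counts ranged from 15354396 to 17317856 per library.

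The promoters of the 3 members with the smallest edgeR p-values for any difference between ages are shown first. Kcnj11 came next by that p-value, but no promoter was found for it. A link between promoter sequence and level was not tested. The windows shown are 300 bases from 250 before to 50 after the RefSeq start of the gene, in GRCm38.p6 (the assembly also named mm10), written 5′ to 3′ on the strand of the gene. Capitals mark E-boxes, the letters CANNTG that myogenic factors and other basic helix-loop-helix proteins can bind. Kcna5 lies on the minus strand at chr6:126535506-126535805, Kcnd3 on the plus strand at chr3:105451640-105451939 and Kcnj8 on the minus strand at chr6:142571565-142571864.
Kcna5: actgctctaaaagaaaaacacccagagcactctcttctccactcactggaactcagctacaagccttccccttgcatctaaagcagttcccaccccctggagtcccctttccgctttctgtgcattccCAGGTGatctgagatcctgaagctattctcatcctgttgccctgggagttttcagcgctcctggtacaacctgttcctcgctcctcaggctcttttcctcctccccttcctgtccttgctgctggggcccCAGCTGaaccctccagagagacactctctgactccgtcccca
Kcnd3: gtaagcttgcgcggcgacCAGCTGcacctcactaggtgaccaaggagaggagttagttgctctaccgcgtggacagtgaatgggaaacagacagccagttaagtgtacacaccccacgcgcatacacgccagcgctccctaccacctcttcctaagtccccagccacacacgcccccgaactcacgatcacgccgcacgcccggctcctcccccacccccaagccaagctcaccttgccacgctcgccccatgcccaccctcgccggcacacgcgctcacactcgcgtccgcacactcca
Kcnj8: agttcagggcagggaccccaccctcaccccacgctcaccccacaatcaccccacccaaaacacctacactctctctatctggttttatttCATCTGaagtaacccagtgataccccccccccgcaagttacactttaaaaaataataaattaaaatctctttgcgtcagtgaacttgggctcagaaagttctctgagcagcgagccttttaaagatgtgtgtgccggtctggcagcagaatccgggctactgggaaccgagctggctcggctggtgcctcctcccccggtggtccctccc
The Kcna5 window held 2 E-boxes, 1 of them 122 bases before the start, and the windows of Kcnd3 and Kcnj8 held 1 each, at 232 and 160 bases before the start. E-boxes were found in 43 of 52 such windows of 35 potassium channel genes and in 72.3% of 32851 windows of all genes. The half-site of nuclear receptors, AGGTCA on either strand, was in 0 of the 3 windows shown, in 2 of the 52 and in 16.3% of all windows.

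By level, the family was dominated by a few pores. Per kilobase of exon, which allows genes to be compared, 4 members made up 59.4% of the summed level and 12 members 88.0%. Kcna7, a voltage-gated pore subunit found mainly in skeletal muscle and heart, was the most abundant at a mean of 56.04 CPM (counts scaled to library size) per kilobase. It was followed by 4 inward rectifiers: Kcnj11, the pore of the sarcolemmal ATP-sensitive channel, at 32.3, Kcnj12 and Kcnj2, which carry the classical inward rectifier current, at 29.8 and 20.5, and Kcnj8, the ATP-sensitive pore of vascular smooth muscle, at 12.3 CPM per kilobase. Also among the 12 were Kcnc4 at 11.7, the silent subunits Kcnf1 and Kcng4 at 10.96 and 8.34, Kcnc1 at 6.82, the large-conductance calcium-activated pore Kcnma1 at 4.79 and Kcna5 at 4.70.

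Summed per kilobase, the 21 voltage-gated pore genes held 51.0% of the family's level and the 5 inward rectifiers 40.8%. The remainder was 4.70% for 8 calcium- or sodium-activated genes, 2.28% for 7 accessory subunits and 1.18% for 5 two-pore genes, as means over the 9 libraries. The sum over all 46 members was 273, 254 and 249.6 CPM per kilobase at 6 months, 236, 214 and 217 at 15 months and 201, 224 and 233 at 21 months. With TMM scaling, used for all CPM here, the libraries of 6 months were all above those of the older ages. For the voltage-gated pores alone the sum was 153, 129 and 134 CPM per kilobase at 6 months, 116, 115 and 113 at 15 months and 93.7, 101 and 121 at 21 months. In this class the 6-month libraries also lay above all older ones. Both separations depend on the scaling and do not hold with total counts. Mouse 2 of 6 months had the lowest TMM factor (0.923) and mouse 1 of 15 months the highest (1.05). From 6 to 21 months mean Kcna7 went from 66.7 to 46.5 CPM per kilobase and Kcnf1 from 16.7 to 9.35. The median log2 fold change of the class was 0.02 at 21 against 6 months. Sums of the inward rectifiers overlapped between ages. 

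**Figure D1:**
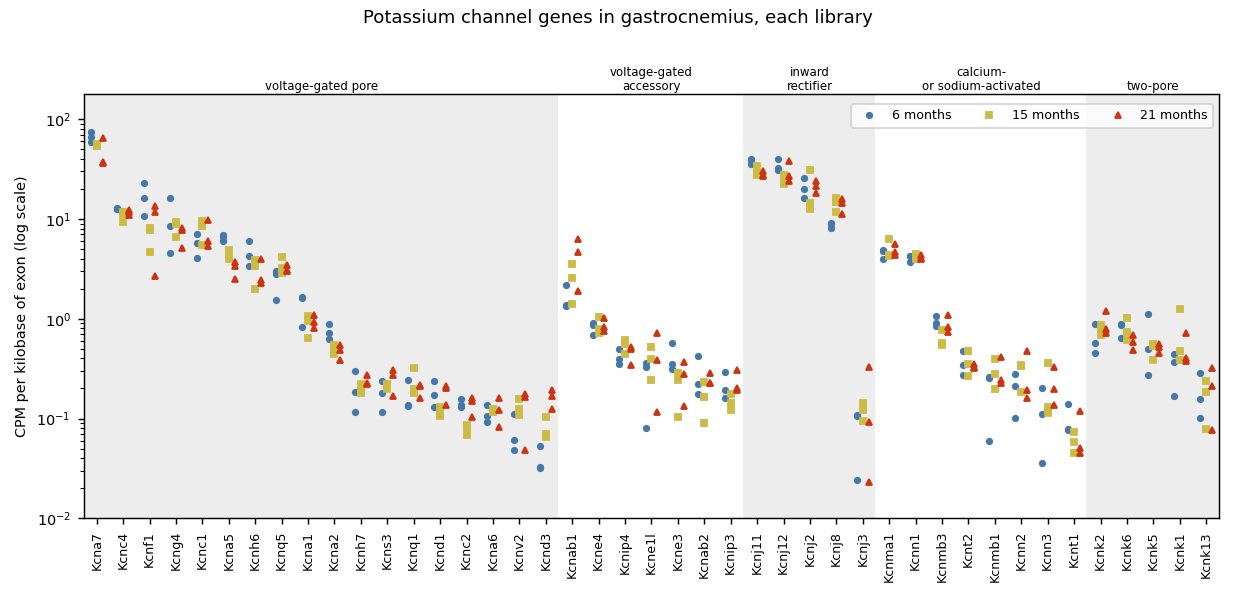
Level of 43 of the 46 potassium channel genes in CPM per kilobase of exon (log scale), 1 point per library, with circles for 6, squares for 15 and triangles for 21 months, grouped by channel class and sorted by mean. Kcna7 at 56.0, Kcnj11 at 32.3, Kcnj12 at 29.8 and Kcnj2 at 20.5 CPM per kilobase have the highest means.

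None of the 44 members that entered the test passed an adjusted p of 0.05 in edgeR in any comparison of ages, where 0.0153% of all 13044 tested genes passed at 21 against 6 months, 0.00767% at 15 against 6 months and 0% at 21 against 15 months. At 21 against 6 months 7 members had an unadjusted p under 0.05, 3 higher (Kcnj8, Kcnd3 and Kcnab1) and 4 lower (Kcna5, Kcna2, Kcna7 and Kcnj11), which is 15.9% of the members beside 10.6% of all tested genes (5.14% higher and 5.5% lower). At 15 against 6 months there were 8, 2 higher (Kcnj8 and Kcnd3) and 6 lower (Kcna5, Kcna2, Kcnc2, Kcnf1, Kcnj11 and Kcnj12), or 18.2% beside 10.3% (4.91% higher and 5.38% lower). At 21 against 15 months there were 3, with Kcnd3 and Kcnc2 higher and Kcna5 lower, or 6.82% beside 1.82% (1.08% higher and 0.736% lower). DESeq2, which estimates the spread differently, passed 4 members at 21 against 6 months (Kcna5, Kcnd3, Kcnj8 and Kcnj11), where it passed 1.53% of all genes. It passed Kcnj8 alone at 15 against 6 months (0.874% of all genes) and 0 members at 21 against 15 months (0.023% of all genes). At an unadjusted p under 0.05 DESeq2 had 2 members in that comparison (Kcna5 and Kcnd3), or 4.55%, beside 1.43% of all genes. In the F-test over all 3 ages 0 members passed an adjusted p of 0.05 in edgeR (0% of all genes) and 7 had an unadjusted p under 0.05 (8.55% of all genes), while the likelihood ratio test of DESeq2 passed 4 (1.56% of all genes).

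The median log2 fold change of the tested members was 0.09 at 21 against 6 months, with 26 higher and 18 lower, beside -0.01 over all tested genes, of which 52% were lower. Without mouse 3 of 21 months this median was -0.04, with 19 higher and 26 lower, and without the 3 libraries that stood apart it was -0.05, with 20 higher and 25 lower. At 15 against 6 months it was -0.03, with 20 higher and 24 lower, beside -0.01 over all genes, of which 51.4% were lower, and total count scaling gave 25 higher and 19 lower. At 21 against 15 months it was 0.02, with 24 higher and 20 lower, where 50.8% of all genes were lower. That median was 0.16 without mouse 1 of 15 months (32 higher, 13 lower), 0.09 without mouse 1 of 21 months (33 higher, 12 lower) and -0.07 without mouse 3 of 21 months (21 higher, 24 lower). By class, the medians at 21 against 6 months were 0.02 for the voltage-gated pores, 0.12 for their accessory subunits, -0.09 for the inward rectifiers, 0.06 for the calcium- or sodium-activated genes and 0.16 for the two-pore genes. Each class had members on both sides. Both comparisons with 6 months share the 6-month mice, so their values are given side by side for each gene and not as separate support. Several of the genes described next were picked for their unadjusted p-values.

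**Figure D2:**
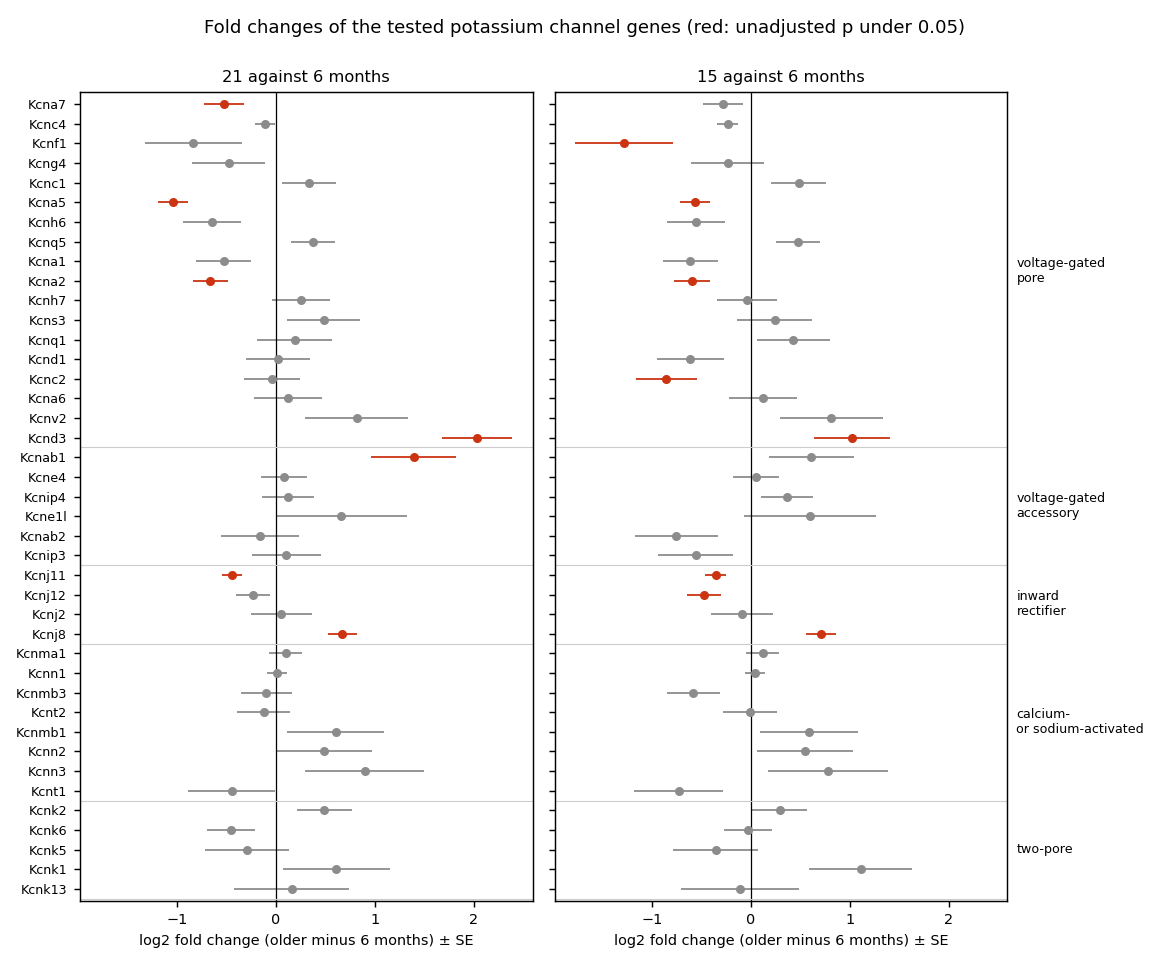
Log2 fold change, older minus 6 months, with its standard error for 41 of the 44 tested members, grouped by class, at 21 against 6 months (left) and 15 against 6 months (right); red marks an unadjusted p under 0.05. Kcnd3 at 2.03 is farthest to the right and Kcna5 at -1.04 farthest to the left at 21 months, and Kcnf1 at -1.28 is farthest to the left at 15 months.

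Kcna5, a delayed rectifier pore known from atrial and vascular smooth muscle cells and macrophages and also present in skeletal muscle (Entrez ID 16493, chromosome 6, 126532551 to 126535412, minus strand), was lower at each older age. Its levels were 19.7, 19.1 and 17.2 CPM at 6 months, 11.4, 14.1 and 12.4 at 15 months and 7.09, 10.5 and 9.63 at 21 months. The 3 ages did not overlap: each mouse of 21 months lay below each of 15 months, and those below each of 6 months. The means were 18.7 ± 1.28 CPM at 6 months, 12.6 ± 1.34 at 15 months and 9.08 ± 1.77 at 21 months (SD, n = 3 each). The log2 fold change was -1.04 (SE 0.15, unadjusted p = 4.18e-05, adjusted p = 0.0585 in edgeR) at 21 against 6 months, which corresponds to 0.49 times the 6-month level, and DESeq2 passed it with an adjusted p of 1.02e-05. It stood at -0.56 (SE 0.15) at 15 against 6 months and at -0.47 (SE 0.15) at 21 against 15 months. In edgeR the adjusted p at 21 against 6 months crossed the threshold without mouse 3 of 6 months (0.0454) and without a filter on low counts (0.0327). It stayed above the threshold in the other edgeR settings, up to 0.209 without mouse 1 of 21 months. Without the 3 libraries that stood apart the log2 fold change was -1.07 (unadjusted p = 5.66e-04, adjusted p = 0.151 in edgeR). Macrophage markers were also lower, with 5 of 5 below 0 at both older ages. At 21 and 15 against 6 months 3 had an unadjusted p under 0.05, beside 10.6% and 10.3% of all tested genes. Their sums were 80.7 to 108 CPM at 6 months, 40.7 to 81.3 at 15 months and 46.5 to 75.5 at 21 months. Smooth muscle and pericyte markers went the other way. Of these, 7 of 7 were above 0 at 21 and 15 against 6 months (medians 0.31 and 0.40), 0 with an unadjusted p under 0.05. The part of either cell type in the result was not tested.

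Among its relatives, Kcna2, a delayed rectifier pore known mainly from axons (Entrez ID 16490, chromosome 3, 107101146 to 107115005), was lower in all 6 older mice than in any mouse of 6 months. Its levels were 8.67, 7.51 and 10.6 CPM at 6 months, 6.51, 5.92 and 5.31 at 15 months and 4.63, 6.56 and 5.74 at 21 months. Its fitted log2 difference was -0.66 (SE 0.18, unadjusted p = 0.00403, adjusted p = 0.218 in edgeR) at 21 against 6 months, beside -0.59 (SE 0.18) at 15 against 6 months, with a DESeq2 adjusted p of 0.0987 and 0.219. Its axonal partner Kcna1 had 7.86, 3.94 and 7.66 CPM at 6 months, 5.14, 4.50 and 3.10 at 15 months and 3.85, 5.19 and 4.45 at 21 months, with overlapping groups and log2 fold changes of -0.53 (SE 0.28) and -0.61 (SE 0.28) at 21 and 15 against 6 months. Schwann cell and nerve markers had sums of 71.2 to 113 CPM at 6 months, 96.6 to 166 at 15 months and 86.9 to 92.5 at 21 months, and Nefl, an axonal filament, was at or near 0 in each library. Kcna1, Kcna5 and Kcna6 lie side by side on chromosome 6, where Kcna1 is 105.0 kb from Kcna5 and 61.9 kb from Kcna6. Kcna6 stayed between 0.494 and 0.955 CPM in all libraries, with a log2 fold change of 0.12 (SE 0.34) at 21 against 6 months. Of its 5945 bases of exon, 2355 overlap an antisense gene, and the strand setting of the counting is unknown here.

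Kcna7 (Entrez ID 16495, chromosome 7, 45405653 to 45409763) had 161, 146 and 129.7 CPM at 6 months, 123, 119 and 117 at 15 months and 80.05, 81.7 and 142 at 21 months. The 3 mice of 15 months were below those of 6 months, while at 21 months mouse 3 lay among the 6-month mice and the other two were far below. Its fitted log2 difference was -0.52 (SE 0.20, unadjusted p = 0.0252, adjusted p = 0.382 in edgeR) at 21 against 6 months, beside -0.28 (SE 0.20) at 15 against 6 months. Without mouse 3 of 21 months the first value was -0.85 (adjusted p = 0.0602 in edgeR), and without mouse 1 of 21 months it was -0.38 (adjusted p = 0.704). Kcna7 without the 3 libraries that stood apart was at -0.85 (unadjusted p = 1.22e-04, adjusted p = 0.105 in edgeR) at 21 against 6 months, and at -0.30 (unadjusted p = 0.0387 in edgeR) at 15 against 6 months. At 21 against 15 months it was -0.24 (SE 0.20) with all libraries, and -0.55 (unadjusted p = 0.00198 in edgeR) without those 3. Mouse 3 of 21 months and mouse 1 of 15 months, the libraries richest in slow and oxidative fibre markers, had 142 and 123 CPM of Kcna7, and the part of fibre type in these levels was not tested.

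Kcnab1, an accessory subunit that can give Kv1-type channels rapid inactivation (Entrez ID 16497, chromosome 3, 65109384 to 65378223), had the largest difference among the accessory genes. Its levels were 11.8, 11.6 and 18.7 CPM at 6 months, 12.2, 22.1 and 30.1 at 15 months and 40.3, 54.05 and 16.2 at 21 months. Mice 1 and 2 of 21 months stood above all other libraries, and mouse 3 of 21 months lay within the range of 6 months. The log2 fold change was 1.39 (SE 0.43, unadjusted p = 0.00824, adjusted p = 0.263 in edgeR) at 21 against 6 months, 0.61 (SE 0.43) at 15 against 6 months, beside 0.78 (SE 0.42) at 21 against 15 months. Leaving out 1 library at a time gave 1.01 to 1.75 at 21 against 6 months. Without the 3 libraries that stood apart in slow and oxidative fibre markers it was 1.63 (adjusted p = 0.105 in edgeR), with 0.78 (unadjusted p = 0.0152 in edgeR) at 15 against 6 months, and 0.85 (unadjusted p = 0.00770 in edgeR) at 21 against 15 months. Its exons share 201 bases with an antisense gene.

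The other accessory genes were low. Kcne4, which can suppress Kv1-type currents, averaged 2.18 ± 0.309 CPM at 6 months, 2.26 ± 0.465 at 15 months and 2.30 ± 0.376 at 21 months (SD, n = 3 each). Kcnab2 had a mean of 1.27 CPM over all libraries, Kcnip4 1.71, Kcnip3 0.703 and Kcne1l 0.541 CPM. Against 6 months the lowest of their log2 fold changes was -0.75 (SE 0.42), for Kcnab2 at 15 months, and the highest 0.66 (SE 0.66), for Kcne1l at 21 months, and none had an unadjusted p under 0.05. Kcne3, known as a partner of Kcnc4 in muscle, had 1.01, 0.626 and 0.552 CPM at 6 months, 0.434, 0.185 and 0.505 at 15 months and 0.661, 0.239 and 0.494 at 21 months. It met the count rule but not the filter of the test, as did Kcnj3.

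**Figure D3:**
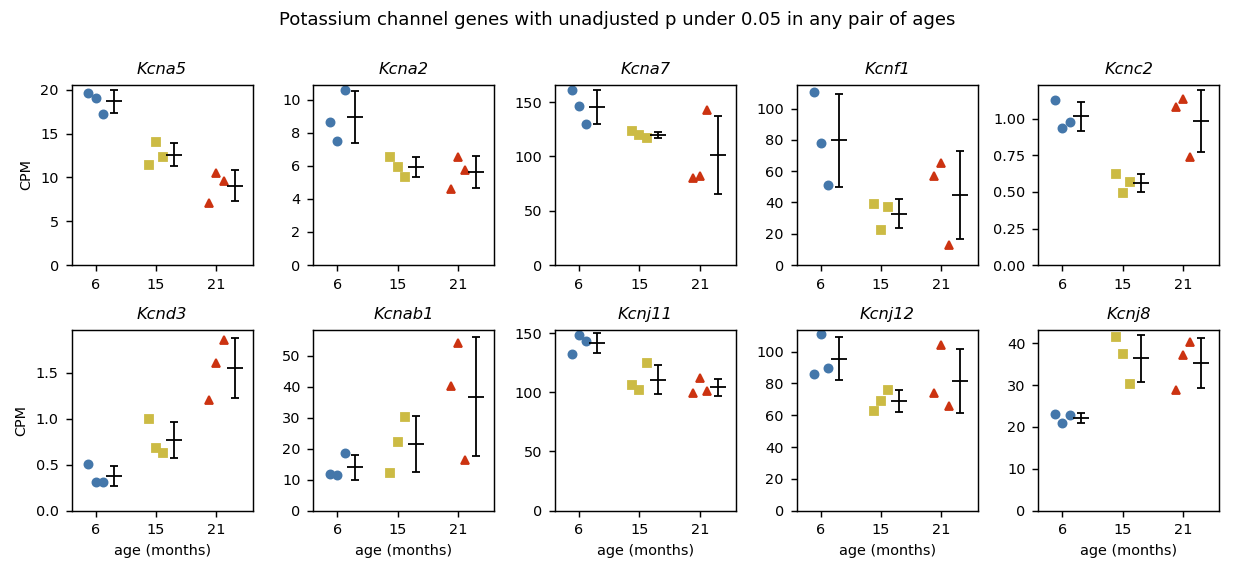
CPM in each library against age in months for the 10 members with an unadjusted p under 0.05 in any pair of ages; points are mice and the bar beside them is mean ± SD (n = 3). Kcna5 steps down without overlap between ages, Kcnd3 steps up, and Kcnj8 stands at 20.8 to 23.1 CPM at 6 months and above 28 CPM in all older mice.

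Kcnd3, a pore of the transient A-type current of heart and brain (Entrez ID 56543, chromosome 3, 105452330 to 105674002), was scarce but ordered by age. Its levels were 0.503, 0.313 and 0.307 CPM at 6 months, 0.992, 0.678 and 0.632 at 15 months and 1.20, 1.61 and 1.85 at 21 months, from 5 to 30 counts per library. No library of an age overlapped another age. The fitted log2 fold change was 2.03 (SE 0.35, unadjusted p = 1.66e-04, adjusted p = 0.0698 in edgeR) at 21 against 6 months, and DESeq2 gave an adjusted p of 0.0102. It was 1.02 (SE 0.38) at 15 against 6 months, beside 1.01 (SE 0.32) at 21 against 15 months. Without the 3 libraries that stood apart its value was 1.78 (unadjusted p = 0.00347, adjusted p = 0.206 in edgeR) at 21 against 6 months, and 0.69 (unadjusted p = 0.195, adjusted p = 0.630 in edgeR) at 15 against 6 months. Per kilobase Kcnd3 ranked 45 of 46 by mean level. Its exons share 165 bases with the antisense gene Kcnd3os. Kcnd1, of the same subfamily, had 0.691, 1.25 and 0.920 CPM at 6 months, 0.620, 0.555 and 0.695 at 15 months and 0.721, 1.07 and 1.11 at 21 months, with the 21-month mice above those of 15 months and a log2 fold change of 0.63 (SE 0.34) between them.

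Kcnf1, a silent subunit that modifies Kv2-type channels (Entrez ID 382571, chromosome 12, 17172100 to 17176888), varied widely. Its levels were 110.4, 78.1 and 51.01 CPM at 6 months, 38.99, 22.3 and 37.4 at 15 months and 56.7, 64.9 and 12.8 at 21 months. All mice of 15 months lay below those of 6 months, and at 21 months mouse 3 was the lowest of all 9 libraries while the other two reached into the 6-month range. On the log2 scale it stood at -1.28 (SE 0.50, unadjusted p = 0.0269, adjusted p = 0.408 in edgeR) at 15 against 6 months, beside -0.83 (SE 0.49) at 21 against 6 months. Without the 3 libraries that stood apart these were -1.43 and -0.41 (adjusted p = 0.281 and 0.669 in edgeR). At 21 against 15 months Kcnf1 stood at 0.45 (SE 0.49), or at 1.03 (unadjusted p = 0.0208 in edgeR) without them. Another silent subunit, Kcng4, had 32.6, 17.2 and 61.3 CPM at 6 months, 25.2, 35.6 and 34.1 at 15 months and 19.5, 29.5 and 30.8 at 21 months, with its lowest and highest libraries both at 6 months. Its log2 fold change was -0.48 (SE 0.37) at 21 against 6 months, -0.94 (unadjusted p = 0.0128, adjusted p = 0.285 in edgeR) without the 3 libraries, -0.82 without mouse 2 of 6 months and 0.10 without mouse 3 of 6 months. The silent Kcns3 and Kcnv2 had means of 0.671 and 0.566 CPM.

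The Kcnc genes, fast-activating pores that allow short action potentials, showed no shared order of the ages. Kcnc4, the most abundant per kilobase, had 45.9, 47.3 and 46.2 CPM at 6 months, 34.03, 41.2 and 43.5 at 15 months and 45.4, 43.5 and 40.3 at 21 months. With TMM scaling all older mice lay below all 6-month mice, those of 21 months by a small margin in mouse 1. Its fitted log2 difference was -0.23 (SE 0.10, unadjusted p = 0.0505, adjusted p = 0.485 in edgeR) at 15 against 6 months, beside -0.11 (SE 0.10) at 21 against 6 months. With total count scaling the value at 21 against 6 months was -0.03 (unadjusted p = 0.780 in edgeR), and the margin depends on the scaling. Its lowest libraries were mouse 1 of 15 months and mouse 3 of 21 months. Without the 3 libraries that stood apart Kcnc4 was at -0.12 (unadjusted p = 0.252 in edgeR) at 15 against 6 months. Kcnc1 had 66.3, 38.1 and 54.2 CPM at 6 months, 89.5, 81.00 and 51.6 at 15 months and 51.3, 56.4 and 92.4 at 21 months. Its highest libraries were mouse 3 of 21 months and mouse 1 of 15 months, those richest in slow and oxidative fibre markers. Its fitted log2 difference was 0.34 (SE 0.28) at 21 against 6 months, and without the 3 libraries that stood apart it was -0.16. Kcnc2 was near the detection limit, with 1.13, 0.939 and 0.981 CPM at 6 months, 0.620, 0.493 and 0.569 at 15 months and 1.08, 1.13 and 0.741 at 21 months. Its log2 fold change was -0.85 (SE 0.31, unadjusted p = 0.0193, adjusted p = 0.386 in edgeR) at 15 against 6 months, beside 0.81 (SE 0.31) at 21 against 15 months, on 8 to 19 counts per library.

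Kcnq5, a pore of slow channels that damp excitability, had 22.9, 11.95 and 21.5 CPM at 6 months, 21.9, 24.8 and 31.8 at 15 months and 22.96, 23.8 and 26.6 at 21 months. Its 21-month mice stood above all 6-month mice by a narrow margin, and mouse 2 of 6 months was the lowest library. At 21 against 6 months it stood at 0.38 (SE 0.22), without an unadjusted p under 0.05. Its relative Kcnq1 was found at a mean of 0.824 CPM. Among pores of the ether-a-go-go group, Kcnh6 had 11.9, 15.02 and 21.2 CPM at 6 months, 13.8, 11.9 and 7.08 at 15 months and 8.05, 8.65 and 14.1 at 21 months with overlapping groups and a log2 fold change of -0.65 (SE 0.30) at 21 against 6 months. Kcnh7 averaged 3.23 CPM, and 696 of its exon bases overlap Gca on the opposite strand.

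The ATP-sensitive channel genes stood on opposite sides. Kcnj11 (Entrez ID 16514, chromosome 7, 46093953 to 46100764, minus strand) had 132, 149 and 144 CPM at 6 months, 106, 102 and 125 at 15 months and 99.6, 112 and 101 at 21 months, and all 6 older mice lay below the lowest mouse of 6 months. The fitted log2 fold change was -0.44 (SE 0.11, unadjusted p = 0.00176, adjusted p = 0.161 in edgeR) at 21 against 6 months, with a DESeq2 adjusted p of 0.0188, and -0.35 (SE 0.11) at 15 against 6 months. Kcnj8 (Entrez ID 16523, chromosome 6, 142564837 to 142571614, minus strand) had 23.1, 20.8 and 22.8 CPM at 6 months, 41.5, 37.5 and 30.3 at 15 months and 28.7, 37.2 and 40.3 at 21 months, and all 6 older mice lay above the highest mouse of 6 months. On the log2 scale it stood at 0.67 (SE 0.15, unadjusted p = 0.00103, adjusted p = 0.138 in edgeR) at 21 against 6 months, beside 0.71 (SE 0.15, unadjusted p = 6.67e-04, adjusted p = 0.194 in edgeR) at 15 against 6 months, with DESeq2 adjusted p of 0.0103 and 0.00813. Without the 3 libraries that stood apart Kcnj11 stood at -0.38 (unadjusted p = 0.0173, adjusted p = 0.302 in edgeR) at 21 against 6 months, and at -0.29 (unadjusted p = 0.0551, adjusted p = 0.459 in edgeR) at 15 against 6 months. Between 21 and 15 months Kcnj8 stood at -0.04 (SE 0.15) and Kcnj11 at -0.09 (SE 0.11).

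The ratio of Kcnj8 to Kcnj11 within a library does not depend on library scaling. It was 0.174, 0.140 and 0.159 at 6 months, 0.390, 0.369 and 0.244 at 15 months and 0.288, 0.332 and 0.400 at 21 months, a quantity formed after the values of both genes had been seen. Every older library had a higher ratio than any 6-month library. This follows from the opposite orders of both genes given above and adds no separate support. Markers of smooth muscle and pericytes, cells in which Kcnj8 is well known, had sums of 659 to 982 CPM at 6 months, 928 to 1179 at 15 months and 829 to 1098 at 21 months, which overlapped between ages. Of these 7 markers 7 stood above 0 at 21 against 6 months (median 0.31) and 7 at 15 against 6 months (median 0.40), with 0 at an unadjusted p under 0.05. Among these markers Rgs5 held most of each sum, at 540 to 914 CPM, while Acta2 ranged from 20.9 to 79.0 CPM. The part of these markers in the result was not tested. Kcnj8 was highest in mouse 1 of 15 months and lowest in mouse 2 of 6 months, 2 of the libraries that stood apart. Without those 3 libraries its log2 fold change was 0.52 at 21 against 6 months and 0.57 at 15 against 6 months (adjusted p = 0.279 and 0.294 in edgeR).

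The ATP-sensitive pores work with sulfonylurea receptors, which give the channel its drug and nucleotide sensitivity and whose genes neighbour them. Abcc9 lies 16.2 kb from Kcnj8 and encodes the receptor of muscle channels. It had 391, 412 and 497 CPM at 6 months, 363, 431 and 449 at 15 months and 437, 428 and 376 at 21 months, with overlapping groups and log2 fold changes of -0.07 (SE 0.13) and -0.06 (SE 0.13) at 21 and 15 against 6 months. Abcc8 lies 3.76 kb from Kcnj11 and encodes the receptor best known from pancreatic beta cells. It had 3.71, 5.70 and 6.19 CPM at 6 months, 2.54, 2.22 and 2.59 at 15 months and 4.99, 4.12 and 3.09 at 21 months, so the 15-month mice lay below all others. Its log2 fold change was -1.08 (SE 0.25, unadjusted p = 0.00124, adjusted p = 0.245 in edgeR) at 15 against 6 months, beside 0.73 (SE 0.25) at 21 against 15 months.

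**Figure D4:**
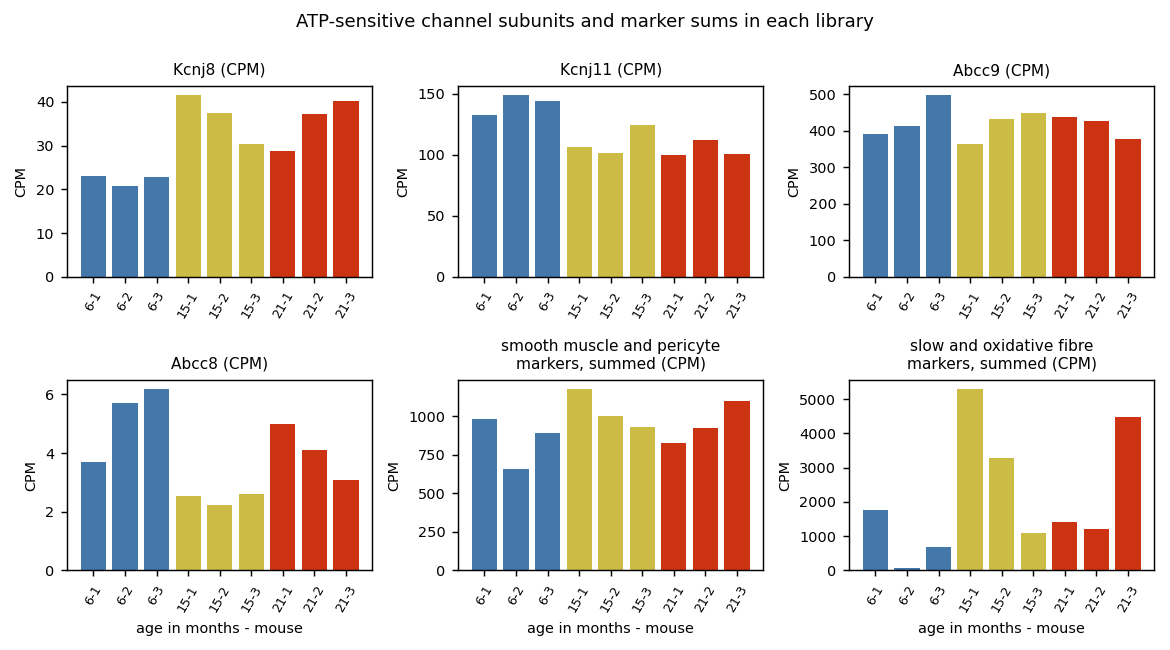
CPM in each library (bars; colours mark the age, labels give age in months and mouse) of the ATP-sensitive pores Kcnj8 and Kcnj11, the receptors Abcc9 and Abcc8, and the summed markers of smooth muscle and pericytes and of slow and oxidative fibres. Kcnj8 is below 24 CPM in the 6-month mice and above 28 CPM in the older ones, Kcnj11 is above 130 CPM in the 6-month mice and below it in the others, and Abcc9 shows overlapping ages.

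The classical inward rectifiers differed from this. Kcnj12 (Entrez ID 16515, chromosome 11, 61022564 to 61071131) had 85.97, 111 and 90.01 CPM at 6 months, 62.4, 68.9 and 75.7 at 15 months and 73.98, 104 and 66.02 at 21 months. All mice of 15 months lay below those of 6 months, and mouse 2 of 21 months lay among the 6-month mice. Its fitted log2 difference was -0.47 (SE 0.17, unadjusted p = 0.0199, adjusted p = 0.389 in edgeR) at 15 against 6 months, beside -0.23 (SE 0.17) at 21 against 6 months. Without the 3 libraries that stood apart these were -0.28 and 0.02 (adjusted p = 0.546 and 0.974 in edgeR). Kcnj2 (Entrez ID 16518, chromosome 11, 111066164 to 111076821), mutated in human Andersen-Tawil syndrome with periodic paralysis, had 141, 108 and 88.2 CPM at 6 months, 171, 78.7 and 68.1 at 15 months and 118, 100.4 and 132 at 21 months. Mouse 1 of 15 months was the highest library, and the other mice of 15 months were the lowest. Its fitted log2 difference was 0.05 (SE 0.31) at 21 against 6 months, and at 15 against 6 months it was -0.09 (SE 0.31), or -0.64 without the 3 libraries (unadjusted p = 0.0157, adjusted p = 0.336 in edgeR). At 21 against 15 months it was 0.14 (SE 0.31), or 0.57 (unadjusted p = 0.0260 in edgeR) without them. Kcnj3, a G protein-gated rectifier of heart and brain, had between 2 and 28 counts per library.

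Calcium-activated genes showed no member with an unadjusted p under 0.05 in any comparison. Kcnma1 had 81.3, 83.1 and 67.5 CPM at 6 months, 106, 71.6 and 74.2 at 15 months and 73.9, 79.05 and 95.2 at 21 months, with overlapping groups and a log2 fold change of 0.10 (SE 0.17) at 21 against 6 months. Kcnn1, a small-conductance channel, was among the steadiest members, at 18.8 ± 1.43 CPM at 6 months, 19.3 ± 1.13 at 15 months and 19.01 ± 1.04 at 21 months (SD, n = 3 each) and a log2 fold change of 0.01 (SE 0.10). Kcnn3, the small-conductance channel that returns in denervated fibres, had 2.14, 0.376 and 1.16 CPM at 6 months, 3.78, 1.36 and 1.20 at 15 months and 2.04, 1.43 and 3.40 at 21 months, with overlapping groups and a log2 fold change of 0.90 (SE 0.60) at 21 against 6 months. Denervation markers beside it had sums of 64.3 to 74.2 CPM at 6 months, 55.6 to 70.04 at 15 months and 65.7 to 89.7 at 21 months, and Chrng, the fetal receptor subunit, was between 0 and 0.835 CPM. Of 7 tested denervation markers 5 were higher at 21 against 6 months. In either direction 2 of the 7 had an unadjusted p under 0.05 there, beside 10.6% of all tested genes. At 21 against 15 months 3 of the 7 did, beside 1.82% of all tested genes. Runx1, a factor induced in denervated muscle and named here after its values were seen, had 3.52, 2.75 and 2.88 CPM at 6 months, 3.72, 3.27 and 3.22 at 15 months and 11.1, 7.64 and 6.24 at 21 months, with all 21-month mice above all others. Myog, another of these markers, went the other way. It had 5.09, 8.14 and 4.90 CPM at 6 months, 3.78, 2.90 and 2.59 at 15 months and 4.33, 4.83 and 4.32 at 21 months. All its older mice lay below all 6-month mice. Kcnn2 averaged 1.90 CPM, Kcnmb3 1.40, the smooth muscle subunit Kcnmb1 1.09, and the sodium-activated Kcnt2 and Kcnt1 2.45 and 0.726 CPM.

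Two-pore genes were all low. Kcnk2, a mechanosensitive background channel, averaged 3.17 ± 1.12 CPM at 6 months, 3.88 ± 0.447 at 15 months and 4.44 ± 1.28 at 21 months, and Kcnk6 3.32 ± 0.544 CPM at 6 months, 3.26 ± 0.866 at 15 months and 2.42 ± 0.407 at 21 months (SD, n = 3 each). Kcnk5, Kcnk1 and Kcnk13 had means of 1.86, 1.14 and 0.570 CPM. None had an unadjusted p under 0.05, and the largest difference was that of Kcnk1 at 15 against 6 months, at 1.11 (SE 0.52), where mouse 1 of 15 months held 2.79 CPM and the other two 0.863 and 1.07 CPM.

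Several members placed these 3 libraries as the sum of the slow and oxidative fibre markers did. In 7 of the 44 tested members (Kcnc1, Kcne1l, Kcnj8, Kcnk1, Kcnmb1, Kcnn2 and Kcnn3) mouse 1 of 15 months and mouse 3 of 21 months were the highest pair and mouse 2 of 6 months was the lowest library. That is 15.9% of the members, beside 3.79% of all tested genes, counted after the libraries had been seen to stand apart. Slow and oxidative fibre markers were higher in 8 of 8 at each older age (medians 2.35 and 2.90 at 21 and 15 against 6 months), and their part in these values was not tested.

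Groups that do not overlap were counted for each comparison. At 21 against 6 months this held for 7 of 44 members (15.9%) beside 16.1% of all tested genes (7.81% higher and 8.31% lower), at 15 against 6 months for 12 (27.3%) beside 13.8% (6.64% higher and 7.14% lower), and at 21 against 15 months for 5 (11.4%) beside 6.14% (2.84% higher and 3.3% lower). The share at 21 against 6 months was close to that of the background. At 15 against 6 months 10 of the 12 were lower at 15 months. They included Kcnmb3, an accessory subunit of the large-conductance channel, and Kcnt1.

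Other genes of membrane excitability were listed beside the family: sodium and chloride channels, sodium-potassium pump subunits, cotransporters, scaffolds and channel regulators. Of 42 listed, 40 were tested and 0 passed an adjusted p of 0.05 in edgeR in any comparison, while DESeq2 passed 1 (2.5%) at 21 against 6 months (Ano5), 1 (2.5%) at 15 against 6 months (Abcc8), beside 1.53% and 0.874% of all genes, and 0 at 21 against 15 months. Unadjusted p under 0.05 was reached by 3 higher and 3 lower genes at 21 against 6 months, by 3 and 5 at 15 against 6 months and by 2 and 0 at 21 against 15 months. These are 15%, 20% and 5% of the list, beside 10.6%, 10.3% and 1.82% of all tested genes, with medians of -0.10, -0.06 and -0.01. Among the most abundant were the channel ubiquitin ligase Nedd4, the muscle sodium channel Scn4a and its accessory Scn4b, with log2 fold changes of 0.01 (SE 0.12), -0.17 (SE 0.13) and -0.11 (SE 0.15) at 21 against 6 months.

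Among listed genes lower at both older ages were Ano5, an anoctamin of muscle membranes, at -0.43 (SE 0.10) and -0.28 (SE 0.10) at 21 and 15 against 6 months, and the sodium channel accessory Scn2b at -0.75 (SE 0.28) and -0.74 (SE 0.28). Higher at both were the potassium-chloride cotransporter Slc12a4 at 0.45 (SE 0.20) and 0.65 (SE 0.20) and Lrrc52, a relative of the accessory subunits of Kcnma1, at 1.93 (SE 0.85) and 2.63 (SE 0.83). Slc12a4 moved with the libraries that stood apart, and Lrrc52 did so in part. Slc12a4 was lowest in mouse 2 of 6 months at 16.3 CPM and highest in mouse 3 of 21 months at 35.6 and mouse 1 of 15 months at 33.04 CPM. Lrrc52 was listed at 0 in mouse 2 of 6 months and was highest in mouse 1 of 15 months at 9.30 CPM. Next came mouse 2 of 15 months at 7.89 CPM, above mouse 3 of 21 months at 5.93 CPM. The part of slow and oxidative fibre content in these values was not tested. Nedd4l, a channel ubiquitin ligase, stood at 0.50 (SE 0.19) at 21 against 6 months and Scn3b at 0.74 (SE 0.29) at 21 against 15 months. Pump subunit Atp1b1 had 149, 10.3 and 88.04 CPM at 6 months, 463, 296 and 121 at 15 months and 134, 129 and 403 at 21 months. It was ordered like the sum of the slow and oxidative fibre markers, most of which was Myh2. Atp1b2 had 313, 397 and 373 CPM at 6 months, 149, 234 and 271 at 15 months and 287, 337 and 196 at 21 months, lowest in the same 2 libraries in which Atp1b1 was highest. Their log2 fold changes at 15 against 6 months were 1.83 (SE 0.81) and -0.73 (SE 0.24).

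Another 39 potassium channel symbols of the table did not meet the count rule. Just inside it were Kcne1l, Kcne3 and Kcnj3, whose third-highest library had 10 counts. Just outside were Kcnd2 at 9.99 and Kcnj15, Kcnh2, Kcnq3 and Kcnn4 at 9 counts. These include the repolarising pore of heart muscle, Kcnh2, and the intermediate-conductance channel of blood cells, Kcnn4.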

How the data were processed

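RNA of whole gastrocnemius from 9 mice was extracted with TRIzol and enriched for messenger RNA on oligo(dT) beads, per the labels' protocols. The authors deposited 1 table of estimated counts per gene. Its values are mostly whole numbers (90.01 to 90.7% per library, within 0.005). Reads were placed on mm10, per the submitters' processing notes, and the aligner, counter, annotation and strand setting are not given in the sources at hand. Column names were matched to sample titles, with 0 columns left over.

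The deposited estimated counts were rounded, filterByExpr (minimum count 10) removed low genes, and TMM factors ran from 0.923 to 1.05. The main test was the edgeR 4.0.16 quasi-likelihood test (R 4.3.3) on 13044 genes in 9 libraries with age as factor, 6 residual and 4.24 prior degrees of freedom, and Benjamini-Hochberg adjustment over all genes at 0.05. DESeq2 1.42.0 was the alternative tool. Other scalings and filters, a replicate block, a fit of only the ages compared, and fits without 1 library or without the 3 that stood apart were also run. CPM uses TMM scaling. CPM per kilobase and gene coordinates use GENCODE vM21 (GRCm38), with exons merged, and all 46 members were matched. RefSeq promoters (GRCm38.p6) were found for 35 of 46. The procedure was tested on simulated data, at an adjusted p of 0.05 in edgeR. Differences of each size were put into 57 to 76 of 12948 to 12953 genes per comparison. Over the comparisons of ages it recovered 15.8 to 33.3% of 1.5-fold, 68.2 to 73.0% of 2-fold and 91.3 to 98.4% of 4-fold differences. Small differences can therefore be missed with 9 libraries. In the deposited data only 2, 1 and 0 genes passed at 21 against 6, 15 against 6 and 21 against 15 months. Recovery with so few genes passing was not tested, so these rates are given for the simulated data only.

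Members and lists were chosen with earlier results of these data known. Values in every library are given for members past an adjusted p of 0.05, with an unadjusted p under 0.05 in any pair of ages, or among the 12 highest per kilobase. Kcna1, Kcnd1, Kcnq5, Kcnh6, Kcne3, Kcnn3 and the receptor Abcc9 were added after their values had been seen. A few genes that met these rules, or were members, enter the counts and sums but are not reported here by name or shown in the figures. Deviations of same-numbered mice from their group means correlated between -0.42 and 0.41, so the numbers were not taken to pair mice.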

Additional observations from a re-analysis of the deposited data

How the results depend on the processing

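The number of potassium channel genes past an adjusted p of 0.05 was 0 in edgeR at 21 against 6 months, 1 without a filter on low counts, 0 to 1 when 1 library at a time was left out, and 4 in DESeq2. At 15 against 6 months it was 0, and 1 in DESeq2, and for any difference between ages 0, and 4 in DESeq2. At an unadjusted p under 0.05 the count of 7 at 21 against 6 months was 12 without the 3 libraries that stood apart and 6 to 9 with 1 library left out. The count of 8 at 15 against 6 months was 12 without a filter, 12 without the 3 libraries and 7 to 13 with 1 library left out, where the 13 arose without mouse 3 of 15 months. The count of 3 at 21 against 15 months was 1 with at least 5 CPM required in 3 libraries, 7 without the 3 libraries and 2 to 6 with 1 library left out, where the 6 arose without mouse 3 of 21 months. The strict filter kept 20 members, and the cause of the other moves was not tested. A replicate block gave 7, 11 and 3 for these comparisons and 0 past an adjusted p, and since the mice share only a number it is given here alone. Kcna2, Kcna5, Kcnab1, Kcnj8 and Kcnj11 had an unadjusted p under 0.05 at 21 against 6 months in all 17 alternatives, Kcnd3 in the 16 that tested it and Kcna7 in 12.

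Some genes changed sign in their log2 fold changes. Without the 3 libraries Kcnc1 stood at -0.16, Kcnc2 at 0.069, Kcnj12 at 0.019 and Kcnj2 at -0.070 at 21 against 6 months, and Kcnma1 at -0.029 at 15 against 6 months and 0.069 at 21 against 15 months. With total count scaling, which moved the median of all genes to 0.07 in both comparisons with 6 months, Kcnc2 stood at 0.037 at 21 against 6 months and Kcnj2 at 0.00689 at 15 against 6 months. With 1 library left out, the ranges that crossed 0 at 21 against 6 months were -0.15 to 0.12 for Kcnc2, -0.82 to 0.10 for Kcng4, -0.087 to 0.25 for Kcnj2 and -0.014 to 0.17 for Kcnma1. At 15 against 6 months they were -0.57 to 0.35 for Kcng4, -0.61 to 0.15 for Kcnj2 and -0.084 to 0.23 for Kcnma1. At 21 against 15 months they were -0.19 to 0.058 for Kcna2, -0.46 to 0.0088 for Kcnc1, -0.15 to 0.0011 for Kcnj11, -0.095 to 0.67 for Kcnj2, -0.16 to 0.088 for Kcnj8 and -0.14 to 0.18 for Kcnma1. Kcnd3 and Kcnc2 rest on at most 30 and 19 counts per library, which limits their precision. Kcne3 and Kcnj3 entered no main test and, with no filter, stood at -0.64 and 0.88 at 21 against 6 months (unadjusted p = 0.223 and 0.261 in edgeR).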
